A study of Mus musculus with 11 samples.

Results

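Kif1a, Fndc3c1 and Pkdcc are 3 of the 13 genes, among 16279 tested in mouse embryonic stem (ES) cells, with a fitted level over 100-fold lower in 2i/LIF when set against serum/LIF (0.0799% of the genes tested). They were taken by name because they met that threshold, so their values in these 2 media are a description and carry no test. Pkdcc lay nearest to the threshold of the 3, at a fitted 140.3-fold, against 199.7-fold for Fndc3c1 and 170.0-fold for Kif1a. Over all genes, Gbp2 lay just inside it at 102-fold and Mal2 just outside it at 86.3-fold.

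The ES cells were unsorted and came from 3 clones, named E14, HVJu5.1 and HVJu9.3, all of 129/Ola background. They had been kept for 3 passages or more in 2i/LIF (5 arrays), in KOSR/LIF (3 arrays) or in serum/LIF (3 arrays), and each sample was read on 1 one-colour Agilent array. The study asked whether each medium holds ES cells in a different state. All 3 media held LIF, leukaemia inhibitory factor, a cytokine that keeps ES cells self-renewing. The 2i medium adds an inhibitor of MEK, the kinase above ERK, and an inhibitor of GSK3, a kinase whose activity leads to the breakdown of beta-catenin. KOSR is a defined supplement used in place of serum. No allele or transgene is named in the labels. The titles give E14 for 2i/LIF replicate 3, HVJu5.1 for replicates 1 and 4 and HVJu9.3 for replicates 2 and 5, while the source names give other clones for replicates 1 to 4, so the clone of those arrays is not settled.

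Kif1a encodes a kinesin-3 motor that carries synaptic vesicle precursors and dense-core vesicles along axonal microtubules, and it is best known from neurons. Fndc3c1 is an X-linked member of a family of proteins with fibronectin type III domains, of which Fndc3a is needed for the attachment of developing sperm cells in mice. Pkdcc, also called VLK, is a tyrosine kinase of the secretory pathway that phosphorylates extracellular proteins, and in mice it is needed for the growth of the long bones.

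The windows around the annotated starts of the 3 genes are shown because all 3 genes were lower in 2i/LIF, so that their starts can be compared. Each runs from 250 bases before to 50 bases after a start, 5′ to 3′ on the gene's strand, from RefSeq (GRCm38.p6). Capitals mark the GC box, GGGCGG or its reverse complement, found on either strand with overlapping matches counted. All 3 genes had a window in the table, and Kif1a had a second one further downstream.
Kif1a, chr1:93101825-93102124, minus strand: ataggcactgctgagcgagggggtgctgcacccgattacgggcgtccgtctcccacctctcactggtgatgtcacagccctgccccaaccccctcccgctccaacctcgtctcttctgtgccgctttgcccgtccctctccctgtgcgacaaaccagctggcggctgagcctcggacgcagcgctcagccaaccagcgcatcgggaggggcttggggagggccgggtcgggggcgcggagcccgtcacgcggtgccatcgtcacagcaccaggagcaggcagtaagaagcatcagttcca
Fndc3c1, chrX:106485180-106485479, minus strand: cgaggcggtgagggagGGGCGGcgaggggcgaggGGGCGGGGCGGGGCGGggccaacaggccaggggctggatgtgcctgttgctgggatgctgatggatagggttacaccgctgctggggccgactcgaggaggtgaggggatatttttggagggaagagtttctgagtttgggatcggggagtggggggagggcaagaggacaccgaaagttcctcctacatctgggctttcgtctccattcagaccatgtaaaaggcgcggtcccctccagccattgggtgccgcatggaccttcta
Pkdcc, chr17:83215033-83215332, plus strand: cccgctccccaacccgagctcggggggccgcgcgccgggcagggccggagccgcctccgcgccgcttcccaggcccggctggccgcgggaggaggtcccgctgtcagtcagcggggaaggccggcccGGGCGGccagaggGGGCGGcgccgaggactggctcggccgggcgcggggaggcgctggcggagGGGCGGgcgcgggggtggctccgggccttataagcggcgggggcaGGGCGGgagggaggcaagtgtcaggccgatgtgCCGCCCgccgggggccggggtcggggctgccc

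The Pkdcc window was the richest in CpG dinucleotides, with 42 of them at 82.7% G and C. The Kif1a window held 24 at 67.0%, and the Fndc3c1 window held 17 at 63.3%. The median of all 32851 windows was 7 CpG at 52.7% G and C, and 97.0% of windows held fewer CpG than Pkdcc, 80.0% fewer than Kif1a and 68.6% fewer than Fndc3c1. The GC box matched 5 times at Pkdcc, 4 times at Fndc3c1 and not at Kif1a, and 35.7% of all windows held at least 1. None of the 3 windows held the AP-1 letters TGANTCA, which 7.81% of all windows held, or the TCF/LEF core CTTTGA, which 16.0% held, on either strand. The second Kif1a window held 1 CpG and 2 matches to CTTTGA. These are letter matches and do not show binding.

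Levels below are log2 of the processed intensity over the same array's 75th percentile, so 0 is the brightness that 75% of the probes did not exceed. The share of probes that the scanner software marked as well above background was 43.7% on KOSR/LIF replicate 3 and 53.7% to 72.6% on the other 10 arrays. That array was also the dimmest, with a 75th percentile of intensity of 65.4, and the other 10 had 176 to 537.8. The 10 ES cell markers were all above background on at least 1 array of each medium, and their summed linear level was 652.7 to 925.1 over the 2i/LIF arrays, 548.2 to 674.9 over the KOSR/LIF arrays and 715.2 to 967.9 over the serum/LIF arrays. Of the 10, 2 passed as lower and none as higher in 2i/LIF against serum/LIF (9.98% and 6.74% of all genes). In 2i/LIF against KOSR/LIF 1 passed as lower and 4 as higher (8.72% and 5.95% of all genes). In KOSR/LIF against serum/LIF 2 passed as lower and none as higher (2.21% and 2.37% of all genes). The lower call on Tdgf1 against serum/LIF was lost under 15 of 28 alternative settings, and the higher call on Esrrb in 2i/LIF against KOSR/LIF under 5.

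Kif1a stood at or near background in 2i/LIF, at an intermediate level in KOSR/LIF and high in serum/LIF. Its first probe gave levels of -5.72, -5.73, -4.64, -4.57 and -4.89 on 2i/LIF replicates 1 to 5, and the signal was well above background on replicate 5 alone. In KOSR/LIF the levels were -0.74, -0.61 and -0.26. In serum/LIF they were 2.72, 2.12 and 2.06. The 3 media did not overlap, and the spread within each (SD 0.57 in 2i/LIF, 0.25 in KOSR/LIF and 0.37 in serum/LIF) was smaller than the gaps between them. Processed intensities were 4.15 to 14.6 in 2i/LIF, 54.5 to 176 in KOSR/LIF and 988 to 2060 in serum/LIF, and no array was saturated. The fitted difference of 2i/LIF from serum/LIF was -7.41 ± 0.33 (log2, SE), or -6.77 (109-fold) when each dim signal was raised to the lowest signal that counted as above background on its array.

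A second, dimmer probe of Kif1a gave the same order of media at the ends but did not resolve the middle. It was well above background on all 3 serum/LIF arrays, at -1.04, -1.28 and -1.81, and on none of the other 8 arrays. Its levels there were -6.70 to -5.67 on 2i/LIF arrays and -5.73 to -4.23 on KOSR/LIF arrays. By this probe Kif1a was at least 10.6-fold lower in 2i/LIF against serum/LIF, and no fold can be given between 2i/LIF and KOSR/LIF, where both media lay below background. A bound written "at least" divides the mean of the brighter medium by that of the dim medium after its signals were raised as just described. It is no strict limit, since the lowest signal marked above background on an array can lie under signals not so marked. On 2i/LIF replicate 3 that lowest signal was 5.84, and the first Kif1a probe, at 7.34, was not marked.

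Fndc3c1 had the same graded pattern and was not above background on any 2i/LIF array. Its levels were -6.85, -5.74, -6.75, -6.15 and -6.89 on 2i/LIF replicates 1 to 5. KOSR/LIF gave -2.28, -2.16 and -1.24. Serum/LIF gave 1.29, 0.86 and 1.34. All 6 arrays of the other 2 media were well above background, and again no array of one medium reached the range of another. Intensities were 1.70 to 4.65 in 2i/LIF, 27.7 to 59.9 in KOSR/LIF and 413 to 1250 in serum/LIF. Fndc3c1 was at least 62.0-fold lower in 2i/LIF against serum/LIF, which is the bound that background sets on the fitted -7.64 ± 0.34.

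Pkdcc differed from the other two in both serum-free media: its KOSR/LIF arrays overlapped the serum/LIF arrays, and its 2i/LIF arrays were uneven. Its 2i/LIF levels were -4.10, -1.77, -5.31, -6.56 and -2.78 on replicates 1 to 5, well above background on replicates 1, 2 and 5. The KOSR/LIF levels were 3.00, 3.45 and 2.54. The serum/LIF levels were 3.36, 2.84 and 2.89. All 5 arrays of 2i/LIF lay below every array of the other media. The fitted difference of 2i/LIF from serum/LIF was -7.13 ± 0.86, or -6.60 (97.1-fold) with the dim signals raised, just under the threshold that chose the gene.

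**Figure D1:**
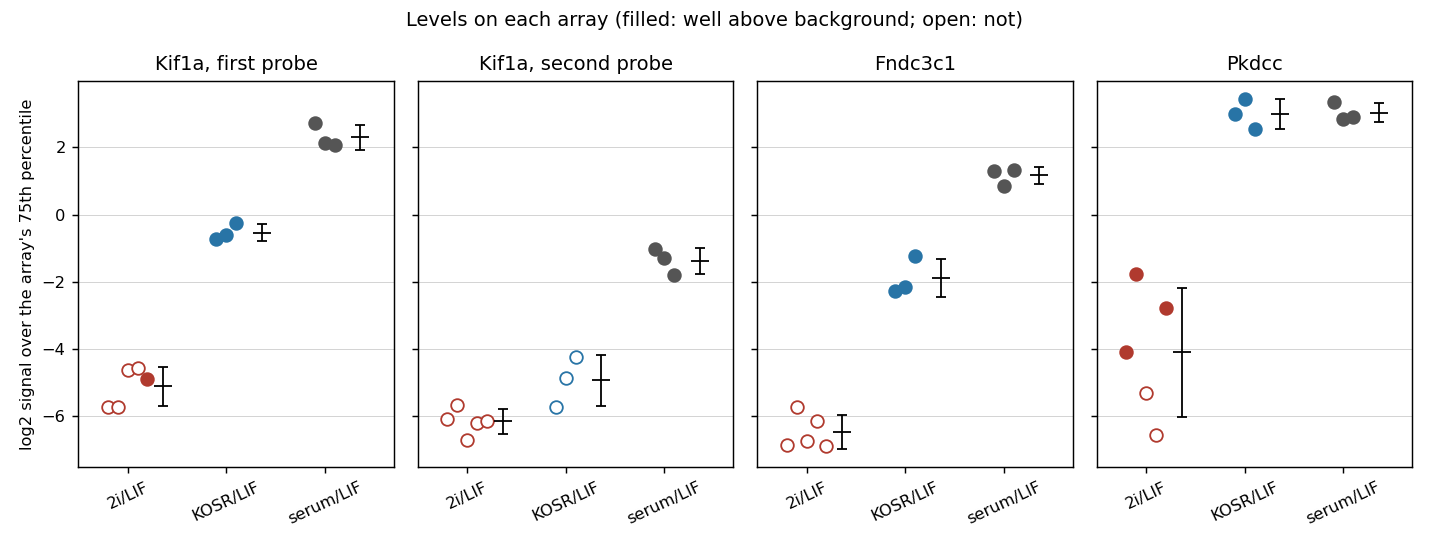
Log2 level over the array's 75th percentile (y axis) on each array of 2i/LIF, KOSR/LIF and serum/LIF for both Kif1a probes, Fndc3c1 and Pkdcc. Filled points were well above background and open points were not, and the bars are the mean ± SD of 5, 3 and 3 arrays. Kif1a (first probe) and Fndc3c1 step up through the media, while the Pkdcc arrays of KOSR/LIF and serum/LIF overlap between 2.54 and 3.45.

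The Pkdcc arrays of 2i/LIF covered 4.79 log2 units, or 27.6-fold, from replicate 4 (lowest) to replicate 2 (highest). Their SD of 1.91 was larger than that of 99.4% of the 16279 genes, for which the median SD in 2i/LIF was 0.41. The SD of Kif1a (0.57) exceeded that of 70.9% of genes and that of Fndc3c1 (0.51) that of 64.2%. Both Pkdcc arrays scanned on the first day (replicates 3 and 4) were not above background, and the 3 arrays of the other days were. By the titles, the arrays with the highest Pkdcc level, replicates 2 and 5, are both of HVJu9.3, and by the source names they are of HVJu5.1 and HVJu9.3. The part of scan day and of clone in this spread was not tested. In the authors' deposited value table, whose columns share a common distribution, Pkdcc ran from 18.2 (replicate 3) to 107.9 (replicate 2), or 5.93-fold, over the same 5 arrays, and its KOSR/LIF and serum/LIF values ran from 2054 to 3301.

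The differences of 2i/LIF from serum/LIF were present within each scan day that held both media. On the first day (2 arrays of each medium) they were -7.02 for Kif1a, -7.53 for Fndc3c1 and -9.03 for Pkdcc. On the third day (2 arrays of 2i/LIF and 1 of serum/LIF) they were -7.36, -8.21 and -6.32 in the same order. Over all genes, 9.98% passed as lower and 6.74% as higher in this comparison (adjusted p under 0.05, 16.7% in all), and 25.7% had 2i/LIF arrays that all lay below, or all lay above, the serum/LIF arrays.

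All 3 genes were lower in 2i/LIF than in KOSR/LIF, a comparison that uses the same 2i/LIF arrays as the choice of the genes and KOSR/LIF arrays that played no part in it. Over all genes 8.72% passed as lower here, 5.95% as higher (14.7% in all), and 10.6% had 2i/LIF arrays that all lay below the KOSR/LIF arrays, as those of the 3 genes did. Pkdcc fell by 7.10 ± 0.86 (limma, adjusted p = 0.00027), and it was the 1 gene of 16279 with a fitted level over 100-fold lower (136.9-fold, or 94.8-fold with dim signals raised, 0.00614% of genes). Kif1a fell by 4.57 ± 0.33 (limma, adjusted p = 1.45e-05), or by 3.94 with dim signals raised. Fndc3c1 was at least 7.44-fold lower (limma, adjusted p = 1.49e-05), with a fitted difference of -4.58 ± 0.34. Within the first scan day the differences were -3.93 for Kif1a, -4.23 for Fndc3c1 and -9.15 for Pkdcc. Between the 1 array of each medium scanned on the second day they were -5.47, -4.50 and -4.31.

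In KOSR/LIF against serum/LIF, Kif1a and Fndc3c1 fell and Pkdcc did not pass. The comparison shares the serum/LIF arrays with the choice of the genes, and over all genes 2.21% passed as lower and 2.37% as higher (4.58% in all). Kif1a was 7.13-fold lower in KOSR/LIF (log2 difference -2.83 ± 0.37, 95% interval -3.64 to -2.03, limma adjusted p = 0.00392). Its second probe was at least 5.33-fold lower, given as a description because only the serum/LIF arrays brought that probe past the filter on dim probes. Fndc3c1 was 8.34-fold lower (-3.06 ± 0.38, 95% interval -3.88 to -2.24, limma adjusted p = 0.00391). Both genes' KOSR/LIF arrays lay below all serum/LIF arrays, as did those of 16.0% of genes. The Pkdcc difference was -0.04 ± 0.96 (limma, adjusted p = 0.989), with an interval from -2.13 to 2.06 that takes its width from the 2i/LIF arrays, since all arrays share 1 estimate of the spread. Fitted on the KOSR/LIF and serum/LIF arrays alone, the interval was -0.77 to 0.70. Its sign turned with the scaling, to 0.08 after quantile normalization and 0.27 in the authors' deposited value table. On the first scan day, the one that held both media, the differences were -3.09 for Kif1a, -3.30 for Fndc3c1 and 0.12 for Pkdcc. A difference between Pkdcc and the other genes in this comparison was not tested.

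**Figure D2:**
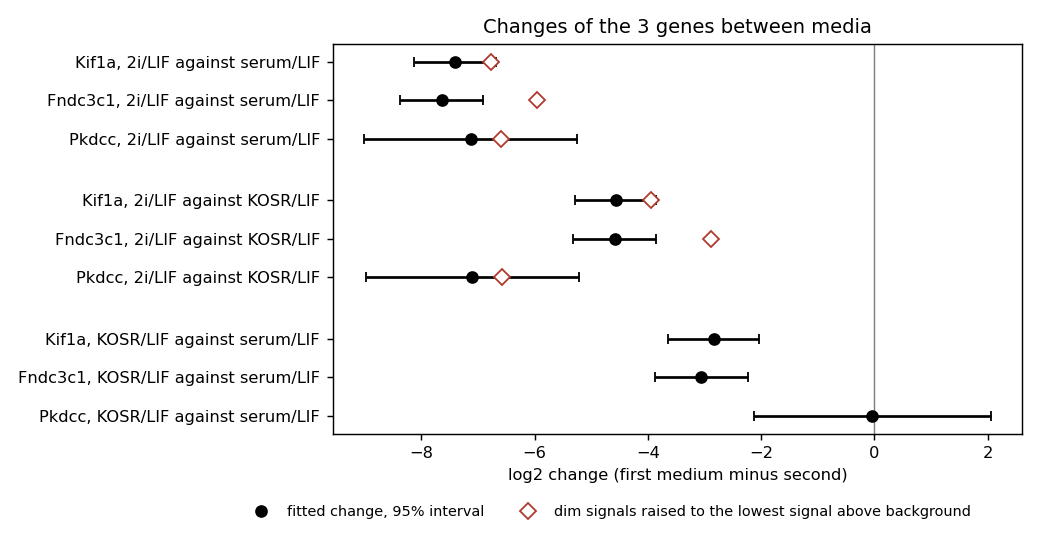
Fitted log2 change (x axis, first medium minus second) of the 3 genes in 3 comparisons, with 95% intervals from the fit over all 11 arrays. Diamonds give the change after dim signals were raised to the lowest signal above background, which for Fndc3c1 in 2i/LIF gives the fold written "at least". Kif1a and Fndc3c1 lie below 0 in every comparison, and Pkdcc in KOSR/LIF against serum/LIF lies at -0.04.

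The 13 genes over 100-fold lower are described beside these patterns. They were chosen for low 2i/LIF and high serum/LIF arrays, which favours lower values in both comparisons with KOSR/LIF. The counts of the 13 are therefore a description and no test. In 2i/LIF, 7 of them were not well above background on any array, Fndc3c1 among the 7. Of the 13, 12 passed as lower in 2i/LIF than in KOSR/LIF, where 8.72% of all genes did. Enpp2, an enzyme that makes lysophosphatidic acid, did not (limma, adjusted p = 0.238). In KOSR/LIF against serum/LIF 9 of the 13 passed as lower and none as higher, where 2.21% of all genes passed as lower and 2.37% as higher. The 4 that did not pass were Pkdcc, Egr1 (-1.98), Cnn1 (-1.62) and Fgf5 (-2.60), and of these 4 Pkdcc alone had KOSR/LIF arrays that overlapped the serum/LIF arrays.

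The genes with the profile most like that of each gene over the 11 arrays were found by the root mean square difference of log2 profiles, each centred on its own mean. Genes with clone or locus names were left out of this ranking. All arrays share the large step between 2i/LIF and the other media, so these are descriptions. Kif1a and Fndc3c1 were close to each other, at 0.56 log2 units, and both were far from Pkdcc, at 1.86 and 1.73. The 5 genes nearest to Kif1a also included Prss23, a serine protease (0.66), Gbp2, an interferon-induced GTPase (0.66), and Gbp2b (0.80). Those nearest to Fndc3c1 included Prss23 (0.56), Slc39a8, a metal ion transporter (0.66), and Thbs1, a matrix glycoprotein (0.74). Among the genes ranked, Pkdcc had no neighbour as close. The nearest were Cnn1, the actin-binding protein calponin (1.24), Pxdn, a matrix peroxidase (1.24), Egr1, an immediate early transcription factor (1.30), Zfp618 (1.42) and Peg10, an imprinted gene derived from a retrotransposon (1.45). Zfp618 and Peg10 shared with Pkdcc a level in KOSR/LIF close to that in serum/LIF, with differences of -0.11 and 0.02 that did not pass.

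**Figure D3:**
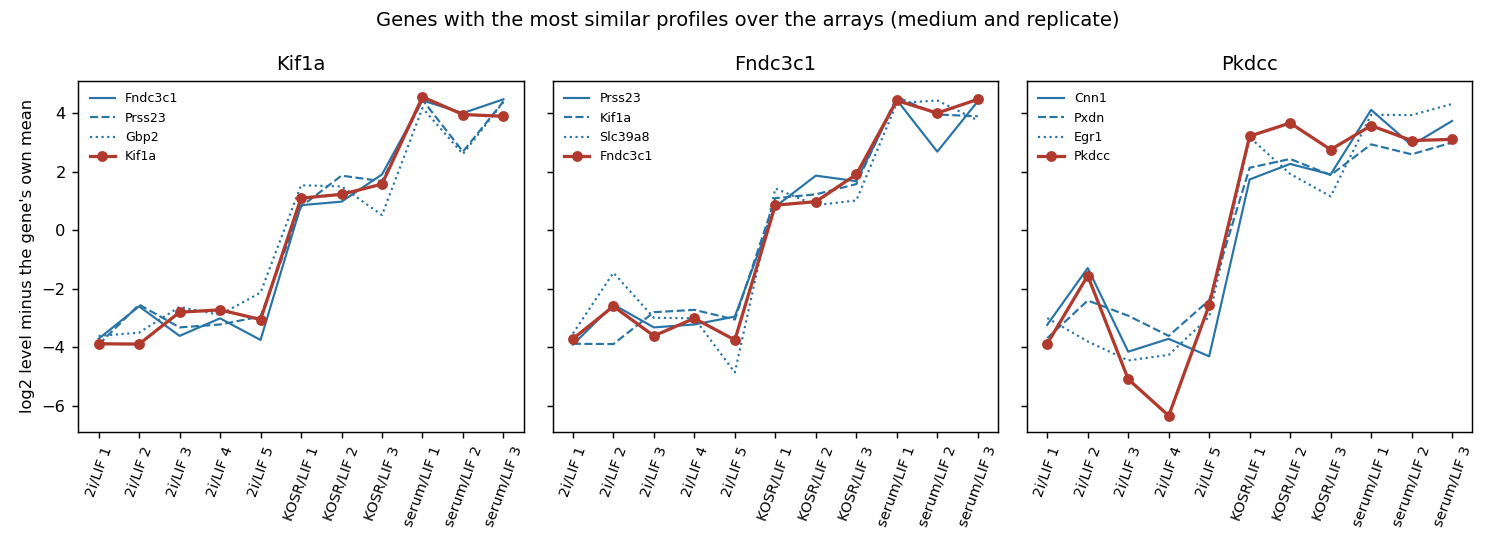
Log2 level minus the gene's own mean (y axis) on the 11 arrays, ordered by medium and replicate, for each of the 3 genes (red, points) and the 3 genes with the smallest root mean square difference (blue). Genes with clone or locus names were left out. The panels for Kif1a and Fndc3c1 show a step at KOSR/LIF and a further one at serum/LIF, and the Pkdcc panel shows arrays of 2i/LIF spread over 4.79 log2 units.

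Among the other kinesin-3 genes 5 were tested, and in 2i/LIF against serum/LIF 1 passed as lower and none as higher (median log2 difference -0.17), where 9.98% of all genes passed as lower and 6.74% as higher (median 0.03). That gene was Kif1c, a motor of Golgi and integrin transport, which fell by 0.94 ± 0.20 (limma, adjusted p = 0.0068). The call was lost with the mean over its probes (-0.58, limma adjusted p = 0.172) and within scan day 3 (-0.95, limma adjusted p = 0.248), and its other probes gave means of -2.69 and -4.09 in 2i/LIF, against -2.46 and -3.52 in serum/LIF. Kif1b, the closest relative of Kif1a, differed by -0.33 ± 0.25 and did not pass. In the other comparisons none of the 5 passed. All 12 mitotic kinesins, which move chromosomes and spindles, failed to pass in every comparison, with medians of 0.03, 0.16 and -0.11 in 2i/LIF against serum/LIF, 2i/LIF against KOSR/LIF and KOSR/LIF against serum/LIF.

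Among 26 other transport and ciliary kinesins 5 fell and 1 rose in 2i/LIF against serum/LIF (median -0.15), beside the same 9.98% lower and 6.74% higher over all genes. Kif5c, a kinesin-1 heavy chain enriched in neurons, fell by 2.65 ± 0.26 (limma, adjusted p = 5e-05). Kif21a, which limits microtubule growth, fell by 2.81 ± 0.49 and Kif26a by 3.27 ± 0.73. Kifc3, a minus-end directed motor, fell by 1.87 ± 0.46, a call that was lost without serum/LIF replicate 1 (-1.64, limma adjusted p = 0.0767). In 2i/LIF against KOSR/LIF 3 fell and 1 rose, where 8.72% of all genes fell and 5.95% rose. Kif21a fell by 2.60 ± 0.49 and Kif5c by 1.43 ± 0.26, and Kif5a, the other neuronal kinesin-1 heavy chain, rose by 1.67 ± 0.27. In KOSR/LIF against serum/LIF 1 fell and 1 rose, where 2.21% of all genes fell and 2.37% rose.

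Of 25 tested genes for the cargo and adaptors of neuronal vesicle transport, 2 fell and 1 rose in 2i/LIF against serum/LIF (median -0.09), where 16.7% of all genes passed in either direction. Syt1, the calcium sensor of synaptic vesicle release, was at least 6.14-fold lower (limma, adjusted p = 0.00357), a call lost with normexp background correction (-1.09, limma adjusted p = 0.0884). Bdnf, a neurotrophin carried in dense-core vesicles, fell by 1.86 ± 0.48, a call lost without serum/LIF replicate 1 (-1.80, limma adjusted p = 0.0722) or 3 (-1.59, limma adjusted p = 0.0939), with normexp (-0.79) and with quantile normalization (-1.88, limma adjusted p = 0.0726). Rab3a, a GTPase of vesicles that Kif1a carries, rose by 1.05 ± 0.24, a call lost without serum/LIF replicate 1 (0.96, limma adjusted p = 0.0618). In 2i/LIF against KOSR/LIF 5 fell and none rose, where 8.72% of all genes fell and 5.95% rose, and in KOSR/LIF against serum/LIF none passed.

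Some markers of neurons fell in the same comparisons as Kif1a. Of 10 neuronal markers 9 were tested, and 4 fell in 2i/LIF against serum/LIF, 3 in 2i/LIF against KOSR/LIF and 2 in KOSR/LIF against serum/LIF, with none higher. Over all genes 9.98%, 8.72% and 2.21% fell in these comparisons, in the same order. Gap43, a growth cone protein, fell by 5.33 ± 0.35 in 2i/LIF against serum/LIF (limma, adjusted p = 3.51e-06) and by 2.43 ± 0.39 in KOSR/LIF against serum/LIF (limma, adjusted p = 0.00687), the second of which was lost in the deposited value table (-1.62, limma adjusted p = 0.0928). Rbfox3, the neuronal splicing factor NeuN, fell by 4.25 ± 0.57 in 2i/LIF against serum/LIF, Elavl3, an RNA-binding protein of neurons, by 2.91 ± 0.38, and Map2, a microtubule-associated protein of dendrites, by 2.81 ± 0.35, of which the Map2 call was lost with normexp (-0.91, limma adjusted p = 0.0621). The summed linear level of the tested markers was 12.0 to 38.8 in 2i/LIF, 19.0 to 25.8 in KOSR/LIF and 34.3 to 42.2 in serum/LIF, and each of the 9 was above background on some array of each medium. Their part in the Kif1a difference was not tested. In these bulk samples, fewer cells expressing a gene and less RNA per cell cannot be told apart.

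Of 8 other FNDC family members tested, 2 fell and 1 rose in 2i/LIF against serum/LIF (median 0.13), where 9.98% of all genes fell and 6.74% rose. Fndc5, the precursor of irisin, fell by 3.67 ± 0.33 (limma, adjusted p = 2.62e-05), and Fndc4, its closest relative, fell by 2.95 ± 0.27 (limma, adjusted p = 2.59e-05). Both fell as well against KOSR/LIF, by 4.00 ± 0.33 and 2.63 ± 0.27, and no other member passed there or in KOSR/LIF against serum/LIF. Fndc10 rose by 0.80 ± 0.24 in 2i/LIF against serum/LIF (limma, adjusted p = 0.0402), a call lost under 17 of 28 alternatives (0.67 to 1.03 over all of them, highest limma adjusted p = 0.38). They include normexp, quantile normalization, no filter on dim probes and leaving out any serum/LIF array, 2i/LIF replicate 1, 2 or 3, or KOSR/LIF replicate 1 or 2. Fndc3a and Fndc3b, the relatives close to Fndc3c1 in name that could be tested, differed by 0.05 ± 0.37 and 0.28 ± 0.40 and did not pass. The adjacent gene Fnd3c2, also close in name, was not well above background on any of the 11 arrays and was not tested.

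Of 9 other secretory pathway kinases, 2 fell in 2i/LIF against serum/LIF and none rose (median 0.00), where 9.98% of all genes fell. Fjx1, the mouse counterpart of the fly Golgi kinase four-jointed, fell by 1.95 ± 0.38 (limma, adjusted p = 0.00403). Fam20c, the Golgi kinase that phosphorylates secreted matrix proteins, fell by 1.57 ± 0.30 (limma, adjusted p = 0.00375), a call lost with normexp (-0.68, limma adjusted p = 0.124), and its other probe was mostly not above background. Fam20a and Fam20b, the closest relatives of Fam20c, differed by 0.86 ± 0.41 and 0.58 ± 0.32 and did not pass. Fam20c and Fjx1 also passed against KOSR/LIF, falling by 1.93 ± 0.30 and 1.53 ± 0.38, the Fjx1 call being lost without KOSR/LIF replicate 1 (-1.47, limma adjusted p = 0.0677) or 2 (-1.51, limma adjusted p = 0.0594). In KOSR/LIF against serum/LIF none of the 9 passed.

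Genes of Hedgehog signalling and long bone growth, the setting in which Pkdcc is best known, fell in 6 of 17 tested and rose in none in 2i/LIF against serum/LIF (median -0.71), where 9.98% of all genes fell and 6.74% rose (median 0.03). Pth1r, the parathyroid hormone receptor of growth plate cartilage, fell by 3.39 ± 0.54 (limma, adjusted p = 0.00104). Gli1, a Hedgehog effector and target, fell by 3.12 ± 0.45 (limma, adjusted p = 0.000617), and Col2a1, the cartilage collagen, by 1.48 ± 0.31. Gli3, a Hedgehog repressor, fell by 1.27 ± 0.31, a call lost without serum/LIF replicate 1 (-1.25, limma adjusted p = 0.0589) or 3 (-1.15, limma adjusted p = 0.07). Against KOSR/LIF 5 fell and 2 rose, where 8.72% of all genes fell and 5.95% rose. Pth1r fell by 4.93 ± 0.54, Col2a1 by 2.42 ± 0.31 and Smo, the Hedgehog signal transducer, by 1.39 ± 0.31, of which the Smo call was lost with the mean over its probes (-1.34, limma adjusted p = 0.1). In KOSR/LIF against serum/LIF 1 of the 17 fell and none rose, where 2.21% of all genes fell and 2.37% rose. That gene was Gli1 (-2.22 ± 0.51, limma adjusted p = 0.031). The call was lost when any 1 of the KOSR/LIF or serum/LIF arrays was left out (-2.36 to -2.07, lowest limma adjusted p = 0.0675) and under 6 other alternatives.

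Some fibroblast markers fell in the comparisons in which Pkdcc was lower. Of 9 tested, 4 fell and none rose in 2i/LIF against serum/LIF (9.98% of all genes fell), 5 fell and none rose against KOSR/LIF (8.72% of all genes fell), and 1 rose and none fell in KOSR/LIF against serum/LIF. Their summed linear level was 1.91 to 2.59 in 2i/LIF, 7.20 to 13.0 in KOSR/LIF and 3.91 to 13.7 in serum/LIF, and 8 of the 9 were above background on some 2i/LIF array, Dcn on none. Col1a2, a chain of type I collagen, fell by 2.41 ± 0.39 in 2i/LIF against serum/LIF and fell by 4.38 ± 0.39 against KOSR/LIF. It was also the gene that rose in KOSR/LIF against serum/LIF, a call lost under 8 of 27 alternatives. The lower call on Col1a1 against serum/LIF was lost under 7 of 28, and that on Pdgfra against KOSR/LIF under 10 of 27. The part of fibroblast markers in the Pkdcc difference was not tested.

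Markers of germ cells stood highest in KOSR/LIF by their summed linear level, which was 4.73 to 19.7 in 2i/LIF, 72.7 to 151 in KOSR/LIF and 7.18 to 17.6 in serum/LIF. All 6 were tested and above background on some array of each medium. In 2i/LIF against serum/LIF 3 fell and 1 rose, where 9.98% of all genes fell and 6.74% rose. In 2i/LIF against KOSR/LIF 4 fell and none rose, where 8.72% of all genes fell and 5.95% rose. In KOSR/LIF against serum/LIF 3 rose and none fell, where 2.37% of all genes rose and 2.21% fell. These calls, on Stra8, Dazl and Mael, were each lost when some single arrays were left out (highest limma adjusted p = 0.0747, 0.0775 and 0.0641). The lower calls on Sycp3 in 2i/LIF, against serum/LIF and against KOSR/LIF, were each lost under 10 of 28 alternatives. Mael, a protein of transposon silencing in the germ line, fell by 4.07 ± 0.32 in 2i/LIF against KOSR/LIF (limma, adjusted p = 2.19e-05). The part of these markers in the differences of the 3 genes was not tested.

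**Figure D4:**
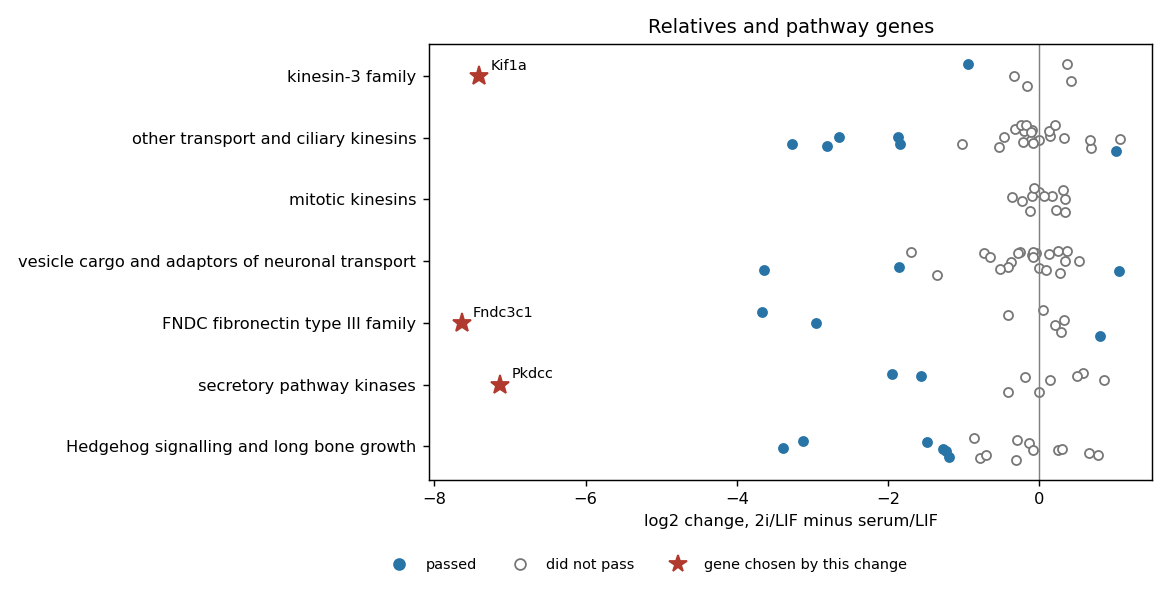
Log2 change in 2i/LIF minus serum/LIF (x axis) of the tested members of 7 gene lists (rows). Filled points passed at an adjusted p under 0.05, open points did not, and red stars are the 3 genes chosen by this change. The stars lie between -7.64 and -7.13, and the largest fitted fall among the other genes shown is that of Fndc5 (-3.67).

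The 5 protein-coding genes on each side of Kif1a, Fndc3c1 and Pkdcc were taken from the gene order of GRCm38.p6, and over all genes 16.7% passed in 2i/LIF against serum/LIF. Around Kif1a 7 were tested, and 1 fell in 2i/LIF against serum/LIF: Mab21l4, at least 4.42-fold lower. Mab21l4 was above background on 3 serum/LIF arrays, 1 KOSR/LIF array and no 2i/LIF array. Its fall is given as a description, because only the serum/LIF arrays brought it past the filter on dim probes. The call was lost with normexp (-0.85, limma adjusted p = 0.21) and within scan day 1 (-4.12, limma adjusted p = 0.0694). The adjacent genes Aqp12 and Agxt were not tested. Around Fndc3c1 7 were tested and 2 fell. Cysltr1, the adjacent cysteinyl leukotriene receptor gene, was at least 15.1-fold lower. This too is a description, because without the serum/LIF arrays Cysltr1 would not have met that filter. Lpar4, a receptor for lysophosphatidic acid, fell by 2.95 ± 0.49 (limma, adjusted p = 0.00136). Cysltr1 was also at least 3.21-fold lower in 2i/LIF than in KOSR/LIF (limma, adjusted p = 0.00779), with levels that overlapped between those media. That call was lost under 5 alternatives, among them the raising of dim signals on which the bound rests (-1.78, limma adjusted p = 0.0627) and normexp (-0.86, limma adjusted p = 0.146). Around Pkdcc 8 were tested and none passed in 2i/LIF against serum/LIF, the adjacent Slc8a1, a sodium-calcium exchanger, differing by 0.56 ± 0.25 and Eml4, a microtubule-associated protein, by -0.12 ± 0.28. Tmem178, near Pkdcc, fell by 2.04 ± 0.55 in 2i/LIF against KOSR/LIF (limma, adjusted p = 0.0286), a call lost under 11 alternatives, among them leaving out 2i/LIF replicate 2 or any KOSR/LIF array (-2.14 to -1.80, highest limma adjusted p = 0.101). Taf9b, near Fndc3c1, fell by 1.39 ± 0.32 in 2i/LIF against KOSR/LIF (limma, adjusted p = 0.012), a call lost without KOSR/LIF replicate 1 (-1.25, limma adjusted p = 0.0573) and under 4 other alternatives. It rose by 1.97 ± 0.36 in KOSR/LIF against serum/LIF (limma, adjusted p = 0.0117), which was lost within scan day 1 (limma, adjusted p = 0.0837).

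**Figure D5:**
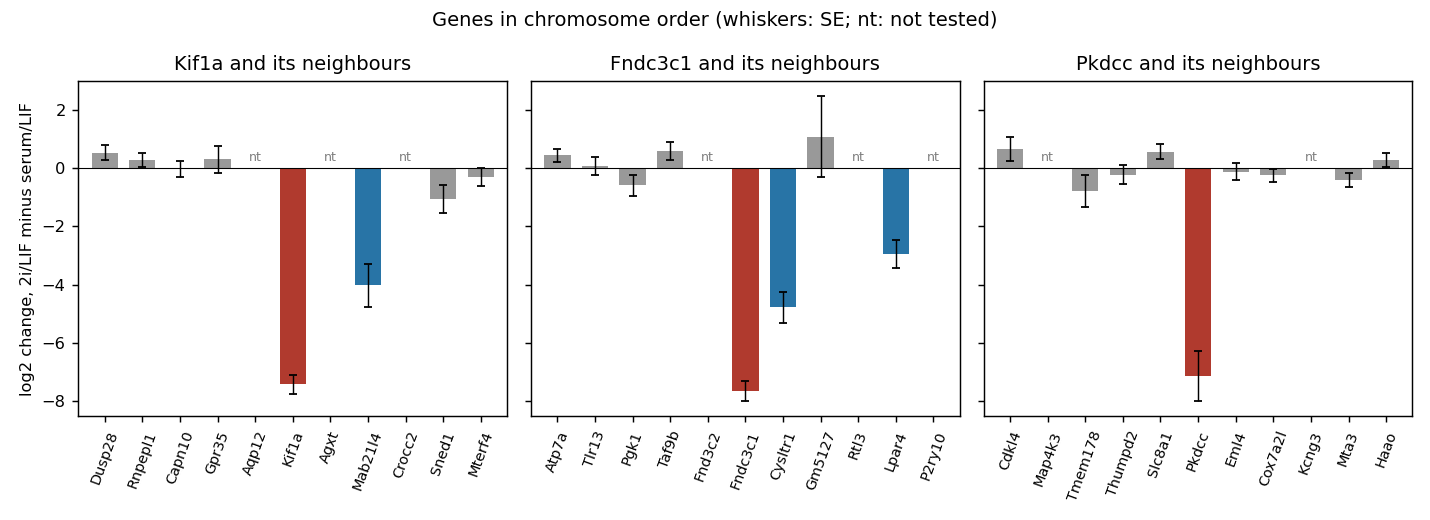
Log2 change in 2i/LIF minus serum/LIF (y axis, bars, with the SE as whiskers) of the 3 genes (red) and of the 5 genes on each side in chromosome order. Blue bars passed, grey bars did not, and nt marks genes not tested. Passing neighbours stand beside Kif1a (Mab21l4) and Fndc3c1 (Cysltr1, Lpar4) and none beside Pkdcc. Mab21l4 and Cysltr1 met the filter on dim probes only through their serum/LIF arrays.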

How the data were processed

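RNA of 11 cultures was labelled with Cy3 and hybridised to 1 Agilent one-colour array each, per the labels. The deposited scanner files hold intensities on a linear scale that Agilent Feature Extraction 11.0.1.1 had background-subtracted and detrended, per the file headers, with no scaling between arrays. A separate value table that the authors deposited is on the same linear intensity scale. Its column medians were 46.5 to 47.8 with 1 shared largest value, and its log2 values correlated with the scanner values of the same array at r = 0.917 to 0.995 over probes. The sources used here do not give its normalization.

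Groups and replicate numbers were read from the titles. Spots without outlier flags were averaged to 55681 probes, 33 more being left out, and of the 29109 probes that carry RefSeq accessions 27642 found a symbol in RefSeq's gene table (GRCm38.p6). The array's own probe design used mm9, per the file headers, so that table served for names and gene order. Log2 intensity minus the array's 75th percentile was fitted for all 11 arrays in 1 model without covariates (lmFit and eBayes, limma 3.58.1, R 4.3.3). Probes well above background on at least 3 arrays entered, the probe with the highest mean stood for its gene, and two-sided p-values of 16279 genes were adjusted by Benjamini-Hochberg, with a threshold of 0.05. The residual degrees of freedom were 8 and the prior ones 3.52. The fit was tested on simulated data. Precision is limited by the number of arrays. The labels do not say whether repeated cultures of a clone were separate, and the p-values reflect the spread among these samples, which may be technical.

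Members and gene lists were chosen with earlier results of these data known. Text names all probes of the 3 genes, up to 4 passing members of each list by size of change, the closest relatives, adjacent genes and passing neighbours, and the 5 most similar profiles, of which 1 gene is not reported here. Egr1, Cnn1, Fgf5 and Enpp2 were named after their values were seen. Alternatives covered background correction (normexp with an offset of 50 on spot and background medians), scaling, filters, probe choice, scan day, slide, clone and each array left out. Protein sequences were not used here. Replicate numbers did not pair the samples: replicate 1 was HVJu5.1 in serum/LIF and E14 in KOSR/LIF. Same-numbered arrays of different media had deviations that correlated at -0.20 to 0.18. Serum/LIF and KOSR/LIF each held 1 array of each clone, a pairing that the main fit did not use. With the clone of titles or source names as a block, KOSR/LIF against serum/LIF gave -2.83 for Kif1a, -3.06 for Fndc3c1 and -0.04 for Pkdcc.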

Additional observations from a re-analysis of the deposited data

Results flagged for a closer look

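In 2i/LIF, the medium with enough arrays for a check of single outlying samples, 58 probes or genes named here were checked, and 4 had 1 array whose gap to the nearest other array was over 0.71 of the whole range. Chance alone flags about 1 in 20, and no probe of Kif1a, Fndc3c1 or Pkdcc was among the 4. Chgb stood at -2.84 on replicate 1, against -4.74 to -4.31 on the other arrays of 2i/LIF. Cysltr1 stood at -4.37 on replicate 4, against -6.14 to -5.66, with no array above background. Gli3 stood at -0.56 on replicate 2, below the 0.37 to 0.71 of the others. Kif24 stood at -1.34 on replicate 5, below the -0.98 to -0.85 of the others.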

How the results depend on the processing

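Leaving out the second Kif1a probe, the 3 genes stayed lower in 2i/LIF against KOSR/LIF and passed under every alternative with a test. So did Kif1a and Fndc3c1 in KOSR/LIF against serum/LIF. That probe is left out because it was above background on no 2i/LIF or KOSR/LIF array and entered through the serum/LIF arrays alone. Both comparisons share arrays with the choice of the genes, the first those of 2i/LIF and the second those of serum/LIF. Sizes moved more. In 2i/LIF against serum/LIF, normexp gave -4.25 for Kif1a, -3.32 for Fndc3c1 and -4.79 for Pkdcc. That setting adds an offset of 50 to every signal, which by construction shrinks the folds of dim signals. The 2i/LIF processed intensities of Kif1a (first probe) and Fndc3c1 were 4.15 to 14.6 and 1.70 to 4.65. The deposited value table gave -6.26, -6.45 and -5.64 for the same genes. Raising dim signals gave -6.77 for Kif1a and -5.95 for Fndc3c1. For Kif1a the mean over both probes gave -6.10 and the second probe -4.78. Within scan day 3 Fndc3c1 gave -8.21 and within scan day 1 Pkdcc gave -9.03. Within scan day 2, in 2i/LIF against KOSR/LIF, Kif1a gave -5.47 and Pkdcc -4.31. The replicate number as a block, which does not pair these samples, gave -4.83, -4.55 and -6.72 for Kif1a, Fndc3c1 and Pkdcc in 2i/LIF against KOSR/LIF, and kept each call on the 3 genes. Among the calls the report gives with values for 2i/LIF against serum/LIF, it lost those on Kif1c, Rab3a, Gli3 and Fndc10.

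The Pkdcc difference in KOSR/LIF against serum/LIF never passed and its sign turned with quantile normalization (0.08), the 75th percentile over probes above background on all arrays (0.08), the deposited value table (0.27), scan day 1 alone (0.12) and a slide block (0.46). Leaving out single arrays gave -0.26 to 0.19. Fndc3a in 2i/LIF against serum/LIF, which did not pass, turned to -0.03 with a scan day or slide block, to -0.38 within scan day 1 and to -0.02 without 2i/LIF replicates 1 and 5, and ran from -0.24 to 0.30 with single arrays left out. Without 2i/LIF replicates 1 and 5 Fndc3b turned to -0.09, and within scan day 3 Fam20a turned to -0.02. Nanog in 2i/LIF against KOSR/LIF turned to -0.21 with the mean over its probes.

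The genes passing in 2i/LIF against serum/LIF numbered 2722, against 1755 with normexp and 1117 within scan day 3. In 2i/LIF against KOSR/LIF they numbered 2388, against 1517 with normexp and 1408 with the replicate block. In KOSR/LIF against serum/LIF they numbered 745, against 374 with normexp and 451 with no filter on dim probes, and 225 to 915 with single arrays left out. The median over all genes of 2i/LIF against KOSR/LIF shifted to -0.11 with the 75th percentile over probes above background on all arrays and to -0.15 with no filter. Within single scan days, which hold fewer arrays, the calls in 2i/LIF against serum/LIF on Kif26a, Kifc3, Syt1, Bdnf, Rab3a, Fjx1, Fam20c, Col2a1, Gli3, Elavl3 and Map2 were also lost on at least 1 day. The cause of the other changes was not tested.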
